A study of Drosophila melanogaster with 18 samples.

Results

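Whole heads of ethanol-exposed flies were compared with heads of naive flies, with the exposed animals pooled whether they had met ethanol 1 time or 5 times. The comparison used 18 of the 18 arrays, 12 from exposed heads and 6 from naive heads, chosen by the group in each sample's title. All were wild-type Canton-S fruit flies (Drosophila melanogaster) aged 2 to 5 days, and each sample held about 60 heads, from which 6 µg of total RNA was labelled for a one-colour Affymetrix array. Fast heads (6 arrays) came from flies given humidified air for 50 min and then 1 exposure of 40 min to 50% ethanol vapor. Chronic heads (6 arrays) came from flies given the same air and then 5 such exposures. Naive heads (6 arrays) came from flies given the 50 min of air alone. Every exposed fly was therefore treated for longer than any naive fly, and no group held in air for a matched time was analysed here. The labels call the replicates biological. Flash freezing is recorded for the Fast and naive flies, but the sources used here do not give it for the Chronic flies. They also do not give the sex of the flies or the interval between exposures.

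Ethanol is oxidised in the fly by alcohol dehydrogenase to acetaldehyde and then to acetate, which acetyl-CoA synthetase turns into the acetyl-CoA that feeds lipid synthesis. The fly head holds fat body as well as brain, eye, glia, muscle and cuticle, and fat body stores triglyceride in droplets coated by perilipins. A brief dose of ethanol vapor is known to leave Drosophila tolerant, so that a later dose sedates less, and repeated doses give a longer-lasting tolerance. Tyrosine, by way of tyrosine hydroxylase and its pterin cofactor, is the source of dopamine, and dopamine serves both as a transmitter and as a precursor in the tanning of cuticle.

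The deposited intensities were linear, with array medians between 125.4 and 129.3 and array maxima between 10996 and 12033. Naive replicate 4 lay nearest the exposed arrays of all naive arrays at 230 of the 490 called probe sets (46.9%, against 7.76% to 17.6% for each other naive array). Without it 565 probe sets were called. A control probe set ratio, the actin 3' to 5' ratio, was higher in exposed heads (mean log2 ratio 2.20 ± 0.13, n = 12) than in naive heads (2.01 ± 0.08, n = 6; exact two-sided permutation test, p = 0.0042, adjusted over 5 measures p = 0.0105), and the 18S rRNA ratio also differed (-2.06 ± 0.44 in exposed and -2.92 ± 0.44 in naive heads, adjusted p = 0.0105), although its 3' probe set was under the floor set for low values (57.8) on 17 of 18 arrays. The GAPDH ratio did not pass (adjusted p = 0.948), and the part of these ratios in the results was not tested. The numbers that the titles give the arrays form 1 consecutive block per group. The labels do not say what these numbers stand for, and anything that follows them cannot be told apart from group. Photoreceptor genes (Arr1, Arr2), the synaptic gene nSyb, the glial gene repo and the yolk protein genes Yp1 and Yp2 were present on every array. Reproductive genes were mixed. The testis genes betaTub85D and dj, the accessory gland gene Acp26Aa and the ovary gene osk lay under the floor on all 18. The testis gene Mst87F (116 to 141), the sex peptide gene SP (61.9 to 85.3) and the ovary genes nanos (320 to 374) and Cp36 (346 to 435) were above it on every array.

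Few transcripts differed between exposed and naive heads, and by small amounts. Of 9311 probe sets tested in a limma fit of all 3 groups, 490 (5.26%) differed between the mean of the exposed groups and naive heads at an adjusted p under 0.05, with 224 higher (2.41%) and 266 lower (2.86%) in exposed heads. The median size of these differences was 1.18-fold. Differences above 1.5-fold numbered 14 higher and 17 lower. Fold values are ratios of geometric means, given in brackets for Fast and for Chronic heads over naive heads. Means ± SD are of the linear intensities of 6 arrays. All adjusted p are limma's with Benjamini-Hochberg adjustment unless named otherwise, and the median log2 difference over all tested probe sets was 0.01. Counted as 1 probe set per gene, 414 of 7461 genes (5.55%) were called, 189 higher (2.53%) and 225 lower (3.02%). Of the 7461 genes 3206 lay below naive. The count for each gene list below is to be read beside these shares. The lists were drawn up with earlier results of these data known, so a larger share of calls in a list is not independent support.

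The estimated Chronic minus Fast difference uses no naive array, but its p rests on the spread within all 3 groups. The test against naive heads uses the same spread. The called probe sets were divided by whether a Chronic minus Fast difference was called, and a missing call does not show equal responses. No Chronic minus Fast difference was called for 260 of the 490, made up of 120 higher and 140 lower. In all 260 the Fast and Chronic means lay on the same side of naive, which follows from this selection and is not a result. For the 120 higher probe sets the median fold was 1.17 in Fast heads and 1.17 in Chronic heads. For the 140 lower ones it was 0.876 in Fast heads and 0.861 in Chronic heads. A Chronic minus Fast difference was called for the other 230 (46.9%), against 8.51% of all tested probe sets, and 26 of these had their exposed means on opposite sides of naive. When Fast and Chronic arrays were fitted as 1 group, so that differences between them counted as residual spread, 209 of 9311 probe sets were called. All were among the 490, and 48.8% of them were higher. The shares of all genes given above belong to the fit of 3 groups and do not apply to the counts with the groups joined. With the groups joined in this way, the genes called higher numbered 3 for transferases, 1 for P450 enzymes, 1 for esterases, 3 for fatty acid synthesis and 3 for oxidation. They numbered 3 for droplet coat proteins and lipases and 3 for fat body markers, and none of these 2 lists was called lower. Those called lower numbered 5 for dopamine and pigment, 2 for amino acid breakdown, 2 for purines, 2 for muscle and 8 for cuticle (separate-group counts stand with each list). No serine and folate gene was then called in either direction. Called lower were 2 genes of the alcohol, acetate and aldehyde list, 2 of oxidative phosphorylation and 1 neuropeptide precursor. No clock gene was called, and no immune gene was called higher. Both exposed groups were set against the same 6 naive arrays, so their likeness is not counted as a result.

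**Figure D1:**
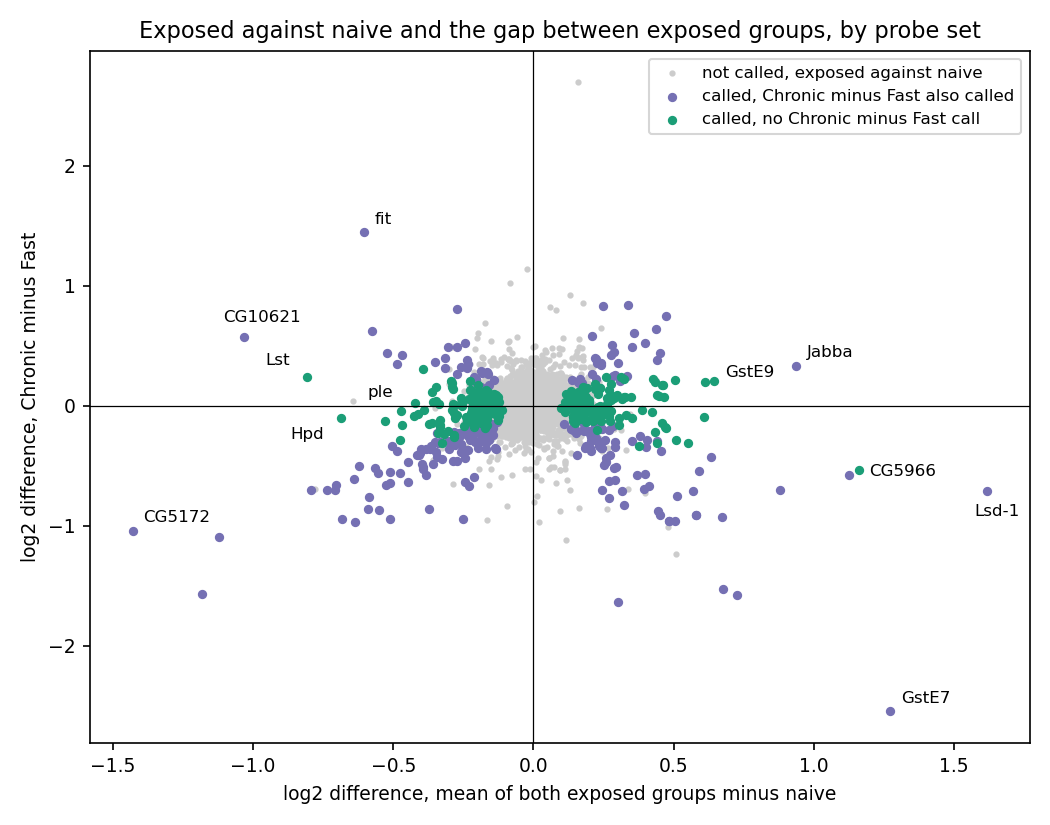
Each point is 1 of 9311 probe sets, with the log2 difference of the mean of both exposed groups from naive heads on the x axis and the log2 difference of Chronic minus Fast heads on the y axis, coloured by call. The 260 called probe sets with no Chronic minus Fast call (green) lie left and right of the centre near 0 on the y axis, and the 230 with one (violet) lie above or below it, with GstE7 lowest at the right.

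A lipid droplet gene, Lsd-1, was among the genes that rose most. Among 12 tested genes for droplet coat proteins and lipases, 4 rose and none fell, against 2.53% and 3.02% of all genes. The median log2 difference of the list was 0.07, against 0.01 for all genes. Lsd-1 encodes a perilipin that coats droplets and controls access of lipases to them. Its intensity ran from 2169 to 2832 (median 2519) in Fast heads and from 1296 to 1853 (median 1488) in Chronic heads, against 484 to 726 (median 656) in naive heads. The lowest exposed array stood well above the highest naive array, and every Fast array stood above every Chronic array. The exposed mean was 3.07 times naive (95% interval 2.71 to 3.48, adjusted p = 1.31e-10), with a smaller rise in Chronic heads (2.40-fold) than in Fast heads (3.93-fold; Chronic minus Fast adjusted p = 4.16e-05).

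Jabba, a droplet protein known for tethering histones to droplets in fly embryos, had the opposite order between exposed groups. Its intensity ran from 515 to 716 (median 613) in Fast heads and from 714 to 896 (median 750.4) in Chronic heads, against 336 to 459 (median 353) in naive heads. All 12 exposed arrays were above all 6 naive arrays, of which naive replicate 4 was the highest at 459. The exposed mean was 1.91 times naive (Fast 1.71, Chronic 2.15, 95% interval 1.72 to 2.13, adjusted p = 5.3e-08), larger in Chronic heads (adjusted p = 0.0136).

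A lipase gene of low signal and a relative of the brummer lipase rose without a called difference between exposed groups. CG5966, annotated as a lipase, ran from 119 to 249 (median 192) in Fast heads and from 78.9 to 226 (median 122) in Chronic heads, against 20.4 to 124 (median 41.3) in naive heads. Of the naive arrays 4 were under the floor of 57.8, and naive replicate 4, at 123.8, lay within the exposed range. The exposed mean was 2.24 times naive (Fast 2.70, Chronic 1.86, 95% interval 1.68 to 2.97, adjusted p = 0.000813), and this fold depends on the floor: it was 2.06 when a pseudocount of 50 replaced the floor, and 3.31 when the floor was set to 24.9. The gene dob (doppelganger von brummer), a paralog of the main fly triglyceride lipase, ran from 217 to 290.1 (median 245) in Fast heads and from 211 to 264 (median 236) in Chronic heads, against 129.8 to 200.4 (median 159) in naive heads. Every exposed array lay above every naive array, and the exposed mean was 1.52 times naive (Fast 1.57, Chronic 1.48, 95% interval 1.35 to 1.71, adjusted p = 7.66e-05). Lip4, another lipase gene, averaged 163 ± 12.5 in Fast and 209 ± 22.6 in Chronic heads, against 158 ± 14.7 in naive heads, 1.17 times naive (95% interval 1.07 to 1.28, adjusted p = 0.0334), but its call was lost under 12 of 29 alternatives.

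Of 19 tested genes that build fatty acids and glycerolipids, 5 rose and 1 fell, against 2.53% and 3.02% of all genes. A Chronic minus Fast difference was called for 3 of the 6 called genes, and the list median log2 difference was 0.03. FASN1, the fatty acid synthase, ran from 2493 to 3305 (median 3008) in Fast heads and from 1946 to 2813 (median 2479) in Chronic heads, against 1567 to 2146 (median 1935) in naive heads. The Fast arrays were all above the naive arrays and the Chronic arrays overlapped them, although the Chronic minus Fast difference was not called (adjusted p = 0.0556). The exposed mean was 1.42 times naive (Fast 1.57, Chronic 1.29, 95% interval 1.27 to 1.59, adjusted p = 0.000295).

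The other 3 members named by the rule differed between exposed groups. ATPCL, the ATP citrate lyase that supplies cytosolic acetyl-CoA, was 1.98-fold in Fast heads and 1.02-fold in Chronic heads, an average of 1.42 times naive (95% interval 1.32 to 1.53, adjusted p = 2.17e-06). Men, the NADP-dependent malic enzyme that supplies reducing power for lipid synthesis, was 1.95-fold in Fast and 1.005-fold in Chronic heads (average 1.40, adjusted p = 9.15e-06), and its second probe set was called as well. Agpat2, an acyltransferase of glycerolipid synthesis, averaged 308 ± 17.98 in Fast and 188 ± 17.96 in Chronic heads, against 162 ± 6.25 in naive heads, 1.48 times naive (95% interval 1.38 to 1.59, adjusted p = 1.92e-07). AcCoAS, the acetyl-CoA synthetase that activates acetate, followed the same order, at 3574 ± 258 in Fast and 2397 ± 215 in Chronic heads, against 2274 ± 281 in naive heads (1.29 times naive, 95% interval 1.18 to 1.42, adjusted p = 0.00118). In the model that joins both exposed groups the calls for ATPCL, Men and AcCoAS were lost.

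Of 14 tested fatty acid oxidation genes 5 rose and none fell, against 2.53% and 3.02% of all genes. Their median log2 difference was 0.09. Acadvl, the very-long-chain acyl-CoA dehydrogenase, averaged 554 ± 54.7 in Fast and 574 ± 67.5 in Chronic heads, against 453 ± 49.5 in naive heads, 1.25 times naive (95% interval 1.13 to 1.38, adjusted p = 0.00832). The thiolase gene yip2 averaged 623 ± 41.5 in Fast and 681 ± 47.3 in Chronic heads, against 541 ± 51.9 in naive heads, 1.21 times naive (95% interval 1.12 to 1.30, adjusted p = 0.00351). Mtpbeta, a subunit of the mitochondrial trifunctional protein, was 1.10-fold in Fast and 1.11-fold in Chronic heads, 1.11 times naive on average (adjusted p = 0.0237), and scu, a hydroxyacyl-CoA dehydrogenase, was 1.02-fold in Fast and 1.45-fold in Chronic heads (adjusted p = 0.0088). Without naive replicate 2, or without naive replicate 6, the count of members called fell to 3.

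**Figure D2:**
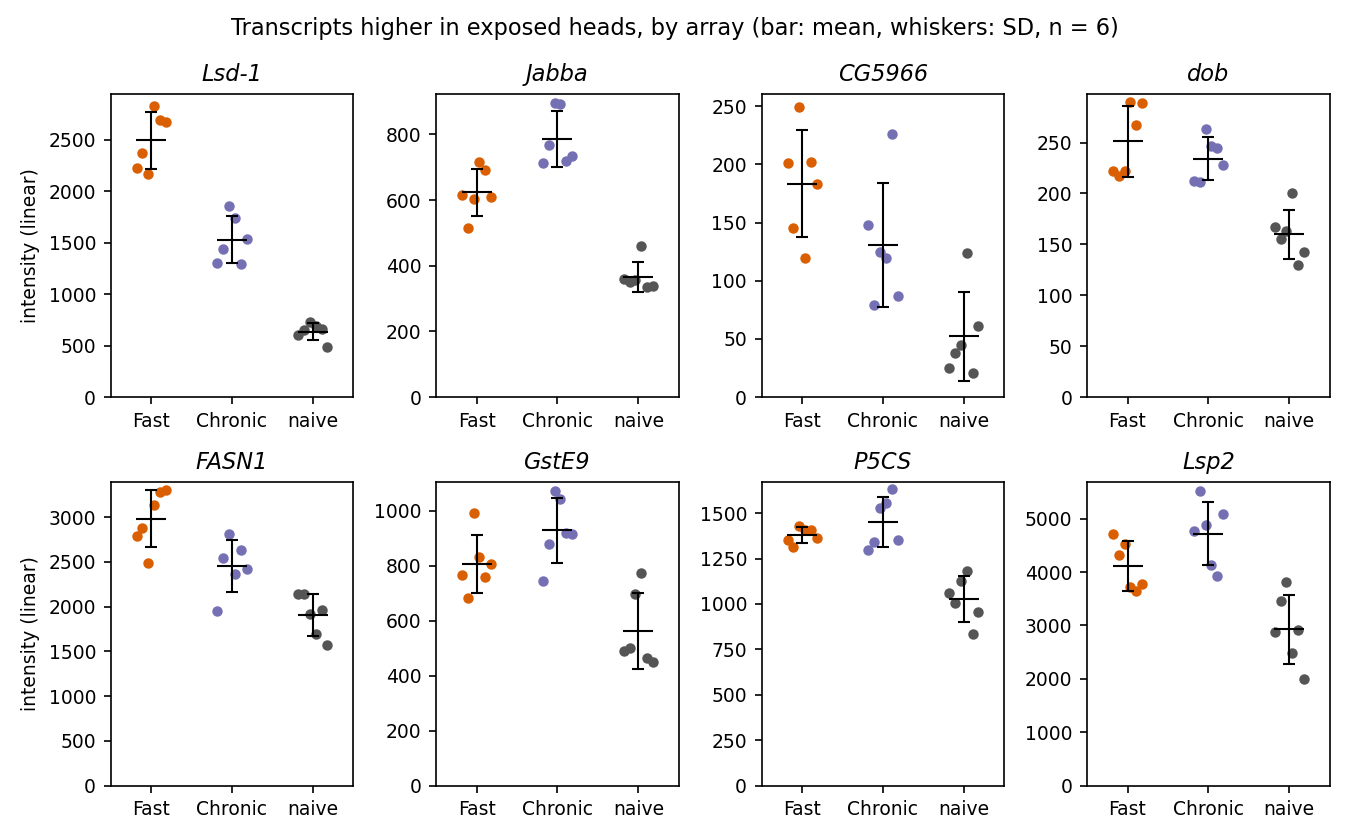
Intensity (linear scale) of 8 transcripts called higher in exposed heads, 1 point per array, in Fast, Chronic and naive heads, with bars at the group mean and whiskers of 1 SD (n = 6). For Lsd-1, Jabba, dob and P5CS all 12 exposed arrays lie above all 6 naive arrays, and for CG5966 naive replicate 4 lies among the exposed arrays.

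Some genes for chemical defence rose. Of 31 tested glutathione S-transferase genes 9 rose and 3 fell, against 2.53% and 3.02% of all genes, while the list median log2 difference was 0.02. GstE9 ran from 681 to 992 (median 787) in Fast heads and from 744 to 1073 (median 917) in Chronic heads, against 449 to 774 (median 496) in naive heads. The highest naive arrays reached into the exposed range, and the exposed mean was 1.56 times naive (Fast 1.46, Chronic 1.68, 95% interval 1.34 to 1.82, adjusted p = 0.000616) with no called Chronic minus Fast difference (adjusted p = 0.424). GstE7 ran from 267 to 431 (median 358) in Fast heads and from 46.1 to 60.6 (median 54.7) in Chronic heads, against 40.3 to 61.7 (median 48.5) in naive heads. It was far above naive in Fast heads and within the naive range in Chronic heads, where 4 arrays were under the floor, as were 5 naive arrays. Its Fast fold was 5.85 (Chronic minus Fast adjusted p = 4.13e-15). The average of 2.42 (adjusted p = 1.31e-10) combines these unequal values and depends on the floor, at 2.04 with a pseudocount of 50 in its place and 2.78 with the floor at 24.9.

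Other transferases split in the same way. GstE3 was 2.86-fold in Fast and 0.959-fold in Chronic heads (average 1.65 times naive, 95% interval 1.42 to 1.92, adjusted p = 0.000148), and GstD1 was 1.51-fold in Fast and 0.928-fold in Chronic heads (average 1.18, adjusted p = 0.000219). Mgstl, a microsomal transferase, was larger in Chronic heads, at 1593 ± 115 in Fast and 1884 ± 97.6 in Chronic heads, against 1423 ± 90.5 in naive heads (1.22 times naive, 95% interval 1.14 to 1.30, adjusted p = 0.000485), and both of its other probe sets were called. Of the members that fell, se (sepia), which works in the synthesis of the red eye pigment, averaged 343 ± 52.5 in Fast and 280.1 ± 41.0 in Chronic heads, against 429.9 ± 55.9 in naive heads, 0.718 times naive (95% interval 0.626 to 0.824, adjusted p = 0.00347). With both exposed groups joined, the calls for GstE7, GstE3 and GstD1 were lost.

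The median log2 difference over 57 tested cytochrome P450 genes was 0.02. Of them 10 rose and 1 fell, against 2.53% and 3.02% of all genes. A Chronic minus Fast difference was called for 9 of these 11. Cyp6a2, a P450 known for insecticide resistance, was 1.88-fold in Fast and 0.995-fold in Chronic heads (average 1.37 times naive, 95% interval 1.27 to 1.47, adjusted p = 1.7e-05). Cyp6w1 averaged 3014 ± 153 in Fast and 2073 ± 123 in Chronic heads, against 1676 ± 297 in naive heads, 1.51 times naive (95% interval 1.36 to 1.67, adjusted p = 1.8e-05), with both exposed means above naive. Cyp4p1 was 1.61-fold in Fast and 1.08-fold in Chronic heads (adjusted p = 0.000139). Cyp4e2 was 1.68-fold in Fast and 1.05-fold in Chronic heads (adjusted p = 0.000245). Of 12 tested UDP-glycosyltransferase genes, which conjugate sugars to foreign compounds, none passed the test.

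Esterase and hydrolase genes were mixed, with 4 of 11 higher and 1 lower, against 2.53% and 3.02% of all genes. The esterase gene alpha-Est2 ran from 253 to 359 (median 337) in Fast heads and from 246 to 320.4 (median 280.3) in Chronic heads, against 192 to 239 (median 216) in naive heads. All exposed arrays were above all naive arrays, and the exposed mean was 1.38 times naive (Fast 1.47, Chronic 1.30, 95% interval 1.25 to 1.53, adjusted p = 0.00023). Jheh2, a juvenile hormone epoxide hydrolase, was 2.20-fold in Fast and 1.15-fold in Chronic heads (average 1.59 times naive, 95% interval 1.45 to 1.76, adjusted p = 1.85e-06). The call for alpha-Est10 (Fast 1.24, Chronic 1.07, average 1.15, adjusted p = 0.0335) was lost under 9 of 29 alternatives, and alpha-Est8 was lower (Fast 0.858, Chronic 0.888, average 0.873, adjusted p = 0.0165). The list count was 2 without Chronic replicate 4 or without naive replicate 1, 2, 5 or 6.

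Of 20 antioxidant genes 3 rose and none fell, against 2.53% and 3.02% of all genes. Gclm, the modifier subunit of the enzyme that limits glutathione synthesis, averaged 286 ± 42.3 in Fast and 250.4 ± 35.6 in Chronic heads, against 193 ± 28.6 in naive heads, 1.39 times naive (95% interval 1.22 to 1.58, adjusted p = 0.00263). Gtpx, a glutathione peroxidase, was 1.29-fold in Fast and 1.15-fold in Chronic heads, 1.22 times naive on average (adjusted p = 0.000269), and the thioredoxin reductase gene Trxr1 was 1.28-fold in Fast and 1.01-fold in Chronic heads, 1.14 times naive on average (adjusted p = 0.0111), both with the larger rise in Fast heads. Heat shock and cytosolic chaperone genes rose at 2 of 14, against 2.53% of all genes. The co-chaperone DnaJ-1 averaged 529 ± 95.1 in Fast and 428 ± 36.3 in Chronic heads, against 348 ± 19.8 in naive heads, 1.36 times naive (95% interval 1.22 to 1.51, adjusted p = 0.000665), and Hsc70-4 was 1.28-fold in Fast and 1.06-fold in Chronic heads, 1.17 times naive on average (adjusted p = 0.00823). Hsp26, a small heat shock protein, did not pass (Fast 1.61, Chronic 0.994, average 1.26, adjusted p = 0.279), and Fast replicate 3 stood alone at 566 against 188 to 212 on the other Fast arrays. Without Fast replicate 3, 4 chaperone genes were called higher.

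A proline synthesis gene and a storage protein gene also rose without a called Chronic minus Fast difference. P5CS, which makes the proline precursor from glutamate, ran from 1311 to 1428 (median 1386) in Fast heads and from 1298 to 1632 (median 1439.5) in Chronic heads, against 835 to 1183 (median 1032) in naive heads. No exposed array overlapped a naive array, and the exposed mean was 1.38 times naive (Fast 1.35, Chronic 1.42, 95% interval 1.27 to 1.51, adjusted p = 5.46e-05). Lsp2, the larval serum protein stored in fat body, averaged 4114 ± 461 in Fast and 4719 ± 595 in Chronic heads, against 2927 ± 651 in naive heads, 1.53 times naive (95% interval 1.32 to 1.78, adjusted p = 0.000807). The uncharacterised genes CG8654 (Fast 1.63, Chronic 1.32, average 1.47), CG6409 (Fast 1.32, Chronic 1.53, average 1.42), CG6426 (Fast 1.30, Chronic 1.46, average 1.38) and CG5321 (Fast 1.29, Chronic 1.46, average 1.37) were also among the 12 largest rises without a called Chronic minus Fast difference. Their adjusted p were 0.00133, 0.000476, 4.53e-05 and 1.7e-05 in that order. Summed fat body markers ran from 49961 to 51606 in Fast heads and from 47439 to 54442 in Chronic heads, against 45175 to 50201 in naive heads. Of 16 tested markers 4 rose (Lsd-1, Lsp2, Pepck1 and CG18135) and 2 fell (CG8665 and fit), against 2.53% and 3.02% of all genes. The sum includes Lsd-1, Lsp2 and Pepck1, so it is not a measure of fat body separate from these genes. The part of fat body amount in the lipid results was not tested.

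Genes of the alcohol, acetate and aldehyde list were called in both directions. Of 13 tested genes for alcohol, acetate and aldehyde handling 1 rose (AcCoAS) and 4 fell (CG8665, Sodh2, Men-b and Sodh1), against 2.53% and 3.02% of all genes. The alcohol and aldehyde dehydrogenase genes Adh, Adhr and Aldh were not analysed here. Sodh2, a sorbitol dehydrogenase, averaged 174 ± 13.8 in Fast and 200.4 ± 16.7 in Chronic heads, against 229 ± 20.5 in naive heads, 0.817 times naive (95% interval 0.753 to 0.885, adjusted p = 0.0025). Men-b, a mitochondrial malic enzyme, was 0.892-fold in Fast and 0.795-fold in Chronic heads, 0.842 times naive on average (adjusted p = 0.00302), but its second probe set was not called (adjusted p = 0.0608). CG8665, annotated as a formyltetrahydrofolate dehydrogenase, was 0.627-fold in Fast and 1.10-fold in Chronic heads, on opposite sides of naive (adjusted p = 0.0015).

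Of 17 tested amino acid breakdown genes 6 fell and none rose, against 3.02% and 2.53% of all genes. Of the 17 genes 15 lay below naive, against 3206 of all 7461, and the median log2 difference was -0.14. A Chronic minus Fast difference was called for 4 of the 6. Among these was CG8665, with Fast (0.627) and Chronic (1.10) heads on opposite sides of naive. Hpd, the 4-hydroxyphenylpyruvate dioxygenase, ran from 605 to 687 (median 660.1) in Fast heads and from 458 to 801 (median 618) in Chronic heads, against 888 to 1191 (median 998) in naive heads. Every exposed array was below every naive array, and the exposed mean was 0.621 times naive (Fast 0.643, Chronic 0.600, 95% interval 0.551 to 0.701, adjusted p = 2.25e-05) with no called Chronic minus Fast difference (adjusted p = 0.675). The enzyme before it, tyrosine aminotransferase (Tat), averaged 857 ± 42.4 in Fast and 1037 ± 136 in Chronic heads, against 1135 ± 45.2 in naive heads, 0.827 times naive (95% interval 0.759 to 0.901, adjusted p = 0.00685), with a called Chronic minus Fast difference (adjusted p = 0.0158) and a call that was lost when the exposed groups were joined. The enzyme after it, homogentisate dioxygenase (hgo), averaged 154 ± 6.27 in Fast and 148 ± 8.80 in Chronic heads, against 173 ± 8.63 in naive heads, 0.872 times naive (95% interval 0.824 to 0.922, adjusted p = 0.00305), again with no overlap between exposed and naive arrays. Faa, the fumarylacetoacetase gene of the same route, was picked after its values were seen and did not pass (Fast 0.953, Chronic 0.849, average 0.900, adjusted p = 0.0680).

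Of 18 tested genes for dopamine and pigment synthesis 6 fell, none rose and 12 had no call. Over all genes 3.02% fell and 2.53% rose. None of the 6 had a called Chronic minus Fast difference. Of the 18 genes 12 lay below naive, against 3206 of all 7461, and the median of the list was -0.02 on the log2 scale. The gene ple, tyrosine hydroxylase and the limiting step of dopamine synthesis, ran from 407 to 494 (median 445) in Fast heads and from 395 to 470.5 (median 432) in Chronic heads, against 474 to 786 (median 613) in naive heads. Fast and Chronic arrays covered nearly the same range, and the highest Fast array exceeded the lowest naive array. The exposed mean was 0.721 times naive (Fast 0.733, Chronic 0.709, 95% interval 0.650 to 0.800, adjusted p = 0.000295).

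Pu, the GTP cyclohydrolase that begins pterin synthesis and so provides the cofactor of tyrosine hydroxylase, ran from 506 to 675 (median 623) in Fast heads and from 489.7 to 627 (median 550.1) in Chronic heads, against 688 to 952 (median 780.5) in naive heads. Its exposed arrays were all below its naive arrays, and the exposed mean was 0.722 times naive (Fast 0.763, Chronic 0.684, 95% interval 0.650 to 0.803, adjusted p = 0.000364). The next pterin enzyme, encoded by pr (purple), averaged 673 ± 33.1 in Fast and 665 ± 45.0 in Chronic heads, against 779.7 ± 47.5 in naive heads, 0.858 times naive (95% interval 0.806 to 0.914, adjusted p = 0.00339). The arylalkylamine N-acetyltransferase gene speck, whose enzyme acetylates dopamine, averaged 734 ± 95.6 in Fast and 742 ± 68.1 in Chronic heads, against 992 ± 143 in naive heads, 0.747 times naive (95% interval 0.664 to 0.839, adjusted p = 0.00252). The gene yellow-e, of the yellow family but outside the dopamine and pigment list, was 0.768-fold in Fast and 0.722-fold in Chronic heads. Its average was 0.744 times naive (adjusted p = 0.0101). The tested yellow family genes of that list, y, yellow-d and yellow-f2, had no call.

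Of 12 tested purine genes 5 fell and none rose, against 3.02% and 2.53% of all genes. A Chronic minus Fast difference was called for 3 of the 5. The median log2 difference of the list was 0.03 in Fast and -0.12 in Chronic heads, an average of -0.11. The gene ry (rosy), xanthine dehydrogenase, ran from 123 to 146 (median 129) in Fast heads and from 126 to 146 (median 136) in Chronic heads, against 151 to 182 (median 175) in naive heads. Exposed and naive arrays did not overlap, and the exposed mean was 0.787 times naive (Fast 0.777, Chronic 0.797, 95% interval 0.735 to 0.842, adjusted p = 8.13e-05), almost the same in both exposed groups. Gart, which catalyses 3 steps of purine synthesis, was 0.972-fold in Fast and 0.506-fold in Chronic heads (adjusted p = 0.000279). Pfas, of the same pathway, was 1.07-fold in Fast and 0.676-fold in Chronic heads, with a call (adjusted p = 0.0411) that was lost under 16 of 29 alternatives. The gene ras, IMP dehydrogenase, was 0.861-fold in Fast and 0.918-fold in Chronic heads, 0.889 times naive on average (adjusted p = 0.0129). The list count was 3 without Chronic replicate 2, 3, 4 or 5, Fast replicate 2, 4, 5 or 6, or any naive replicate but 5.

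Serine and folate genes had 2 of 19 higher and 3 lower, against 2.53% and 3.02% of all genes. All 5 called members had a Chronic minus Fast difference. The phosphoserine phosphatase gene aay was 1.16-fold in Fast and 0.605-fold in Chronic heads, on opposite sides of naive (adjusted p = 0.000669). The folate enzyme gene pug averaged 1022 ± 80.3 in Fast and 758 ± 53.4 in Chronic heads, against 1119 ± 110.0 in naive heads, 0.788 times naive (95% interval 0.726 to 0.856, adjusted p = 0.000665). CG6287, annotated as a phosphoglycerate dehydrogenase, was 0.975-fold in Fast and 0.818-fold in Chronic heads, 0.893 times naive on average (adjusted p = 0.00356). The glycine cleavage gene ppl was higher (Fast 1.41, Chronic 1.02, average 1.198, adjusted p = 0.00508), and without any 1 of Chronic replicates 1 to 5, Fast replicates 1 and 3 or naive replicates 1, 2 and 5 only 1 member of the list was called higher.

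Of 14 tested genes of glycogen, trehalose and gluconeogenesis 2 rose and 1 fell, and of 13 maltase and sugar response genes 1 rose. Over all genes 2.53% rose and 3.02% fell. Tps1, which makes trehalose, averaged 4128 ± 192 in Fast and 3688 ± 302 in Chronic heads, against 3158 ± 261 in naive heads, 1.24 times naive (95% interval 1.15 to 1.33, adjusted p = 0.000613), and Pepck1, of gluconeogenesis, was 2.35-fold in Fast and 1.44-fold in Chronic heads (adjusted p = 0.0019). The gluconeogenic gene fbp was lower (Fast 0.912, Chronic 0.792, average 0.850, adjusted p = 0.011), and without Fast replicate 1 the list held 3 members called lower. The maltase gene Mal-B2 was 1.35 times naive (Fast 1.46, Chronic 1.25, 95% interval 1.23 to 1.48, adjusted p = 0.00023). Of 43 oxidative phosphorylation genes 41 lay below naive and 4 fell, against 3206 of 7461 and 3.02% of all genes. The median log2 difference was -0.08, and none of the 4 had a called Chronic minus Fast difference. ND-18, a complex I subunit, averaged 516 ± 45.1 in Fast and 518 ± 20.4 in Chronic heads, against 591 ± 26.9 in naive heads, 0.874 times naive (95% interval 0.819 to 0.932, adjusted p = 0.0108), and Cyt-c1, of complex III, was 0.887-fold in Fast and 0.876-fold in Chronic heads, 0.882 times naive on average (adjusted p = 0.0155). The calls for ND-19 (Fast 0.877, Chronic 0.875, average 0.876, adjusted p = 0.0338) and ATPsynO (Fast 0.919, Chronic 0.891, average 0.905, adjusted p = 0.0416) were lost under 12 and 16 of 29 alternatives. The number lower in the list was 7 without naive replicate 4, 1 without naive replicate 5, and 2 without Chronic replicate 4 or 5, Fast replicate 5, or naive replicate 2, 3 or 6. None of 26 cytosolic ribosome genes and none of 27 proteasome genes passed the test, and of glycolysis 1 of 10 fell (Hex-A, Fast 0.842, Chronic 0.898, average 0.869, adjusted p = 0.0298). The call for Hex-A was lost under 6 of 29 alternatives, among them leaving out Chronic replicate 3 or naive replicate 2, 4 or 6.

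**Figure D3:**
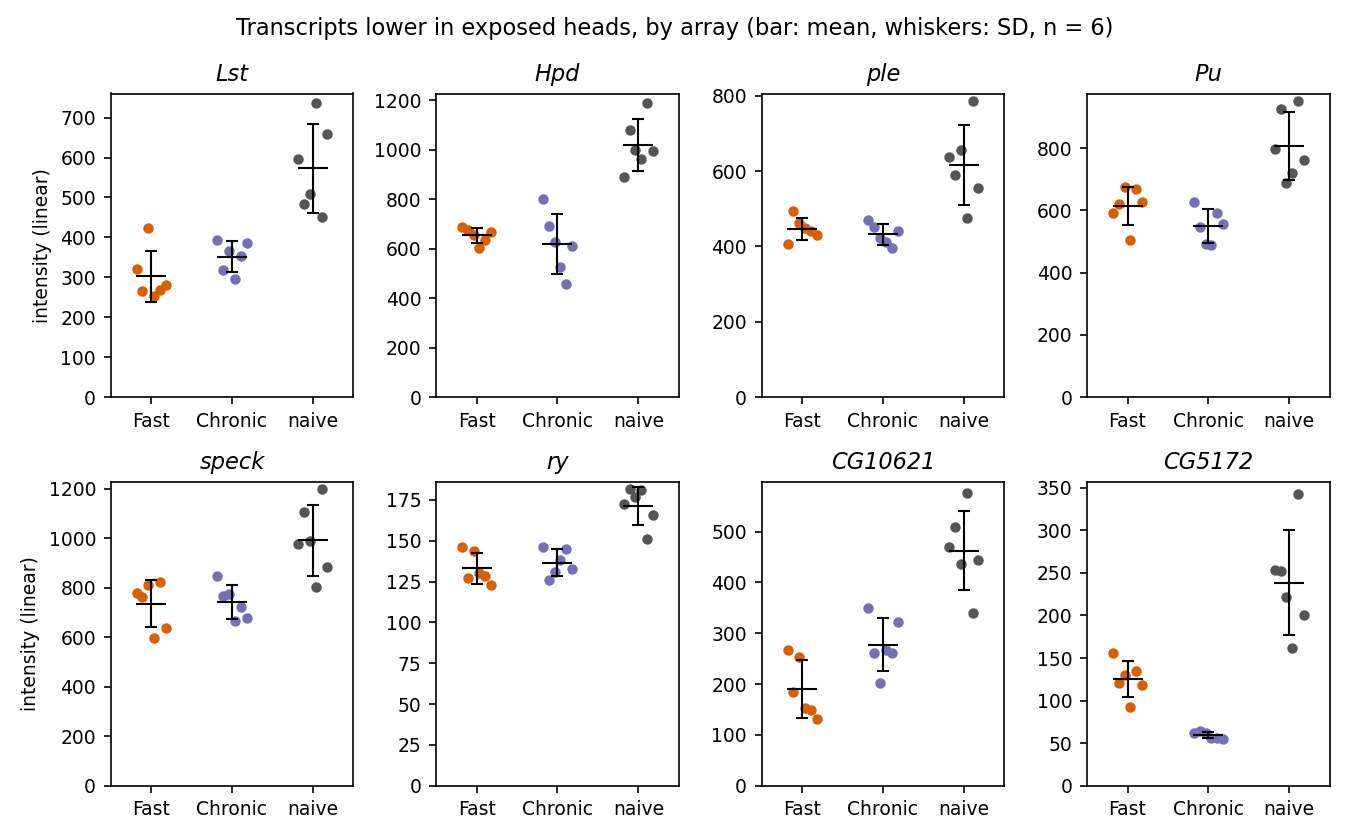
Intensity (linear scale) of 8 transcripts called lower in exposed heads, 1 point per array, in Fast, Chronic and naive heads, with bars at the group mean and whiskers of 1 SD (n = 6). For Lst, Hpd, Pu, ry and CG5172 both exposed groups lie wholly below naive heads, and CG5172 is lowest in Chronic heads.

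The named gene with the largest fall and no called Chronic minus Fast difference was a hormone gene. Lst (limostatin), a hormone known to suppress insulin release in starved flies, ran from 252 to 424 (median 274) in Fast heads and from 296 to 393 (median 359) in Chronic heads, against 452 to 736 (median 553) in naive heads. No exposed array reached the lowest naive array, and the exposed mean was 0.572 times naive (Fast 0.527, Chronic 0.621, 95% interval 0.491 to 0.667, adjusted p = 5.61e-05) with no called Chronic minus Fast difference (adjusted p = 0.331). Of 29 neuropeptide precursor genes 1 rose and 3 fell, against 2.53% and 3.02% of all genes. The gene fit, a satiety peptide of fat body with female-biased expression in heads, was 0.398-fold in Fast and 1.09-fold in Chronic heads (adjusted p = 0.0083). The calls for Nplp3 (Fast 0.961, Chronic 0.780, average 0.866) and CCHa2 (Fast 1.05, Chronic 1.40, average 1.21) were lost under 10 and 11 of 29 alternatives. ImpL2, which binds insulin-like peptides, was 1.15 times naive (Fast 1.26, Chronic 1.05, 95% interval 1.08 to 1.24, adjusted p = 0.0126) and was the only called gene of 20 for insulin, TOR and starvation signalling.

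Genes of the nervous system were mostly without a call, as were all tested genes, of which 5.55% were called. In lists this short an absence of calls does not set them apart. None of 17 synaptic vesicle genes, none of 11 neuron markers and none of 8 histone acetylation genes passed the test. The potassium channel gene slo, studied in ethanol tolerance, averaged 326 ± 36.8 in Fast and 367 ± 42.6 in Chronic heads, against 353 ± 50.4 in naive heads (adjusted p = 0.942). The zinc finger gene hang, also known from ethanol tolerance, averaged 129 ± 16.9 in Fast and 135 ± 8.98 in Chronic heads, against 129 ± 12.8 in naive heads (adjusted p = 0.905). Of 17 potassium channel genes 1 fell, Irk2 (Fast 0.927, Chronic 0.805, average 0.864, adjusted p = 0.0151), whose second probe set was not called (adjusted p = 0.263). The call for Irk2 was lost without naive replicate 2, without naive replicate 6 and with the exposed groups joined.

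Against 2.53% higher and 3.02% lower over all genes, 3 of 23 genes linked to ethanol behaviour and cAMP signalling rose and 1 fell. Besides Men these were kraken, a hydrolase gene, at 206 ± 12.9 in Fast and 173 ± 13.4 in Chronic heads, against 145 ± 10.7 in naive heads (1.30 times naive, 95% interval 1.21 to 1.40, adjusted p = 4.53e-05), the coactivator gene mbf1 (Fast 1.29, Chronic 1.12, average 1.21, adjusted p = 0.00356) and the protein kinase A regulatory subunit gene Pka-R1 (Fast 0.905, Chronic 0.869, average 0.887, adjusted p = 0.0156), whose second probe set was not called (adjusted p = 0.926). The number of members called lower was 3 without naive replicate 5, 2 without Fast replicate 1 and 0 without naive replicate 3, where Pka-R1 lost its call. The transcription factor gene sr (stripe), which responds to neuronal activity, averaged 176 ± 19.4 in Fast and 218 ± 28.2 in Chronic heads, against 258 ± 41.7 in naive heads, 0.761 times naive (95% interval 0.670 to 0.864, adjusted p = 0.00885). The glial GABA transporter gene Gat averaged 372 ± 21.2 in Fast and 378 ± 53.2 in Chronic heads, against 472 ± 26.2 in naive heads, 0.792 times naive (95% interval 0.724 to 0.866, adjusted p = 0.00187). Among clock genes Clk was lower (Fast 0.755, Chronic 0.959, average 0.851, adjusted p = 0.0109), whereas per (Fast 1.11, Chronic 1.03, average 1.07, adjusted p = 0.267) and tim (Fast 1.29, Chronic 1.07, average 1.18, adjusted p = 0.0909) did not pass, and the time of day of each treatment is not stated in the labels. The calls for Usp8 (Fast 1.84, Chronic 1.003, average 1.36) and cwo (Fast 0.795, Chronic 0.917, average 0.854), also of that list, were lost under 2 and 9 of 29 alternatives, and Clk was the only clock gene called lower without Fast replicate 2 or 6 or any naive replicate but 5.

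Immune genes had 2 of 23 higher and 3 lower, against 2.53% and 3.02% of all genes. The drosomycin-like gene Drsl5 was 1.09-fold in Fast and 1.69-fold in Chronic heads (average 1.36 times naive, 95% interval 1.22 to 1.501, adjusted p = 0.000514), and PGRP-SB1, a peptidoglycan recognition protein, was 0.541-fold in Fast and 0.833-fold in Chronic heads (average 0.671 times naive, 95% interval 0.618 to 0.730, adjusted p = 1.85e-06). All exposed arrays of PGRP-SB1 were below all naive arrays. The antimicrobial peptide gene DptB (Fast 0.772, Chronic 0.753, average 0.762, adjusted p = 0.0469) lost its call under 18 of 29 alternatives, and Tep4 (Fast 1.09, Chronic 1.16, average 1.12, adjusted p = 0.031) under 8. Without naive replicate 2, or without naive replicate 6, 1 immune gene was called lower, and without Chronic replicate 3 or naive replicate 1, 5 or 6, 1 was called higher.

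Muscle and cuticle genes fell, and they did so mainly in Chronic heads. Of 25 tested muscle genes 9 fell and none rose, against 3.02% of all genes lower, with a Chronic minus Fast difference called for 8 of the 9 and a median log2 difference of -0.11. Prm (paramyosin) averaged 1145 ± 103 in Fast and 777 ± 89.6 in Chronic heads, against 1401 ± 251 in naive heads, 0.680 times naive (95% interval 0.596 to 0.777, adjusted p = 0.000659). Actn (alpha-actinin) averaged 684 ± 41.1 in Fast and 498 ± 65.4 in Chronic heads, against 799 ± 113 in naive heads, 0.734 times naive (95% interval 0.655 to 0.822, adjusted p = 0.00115), and the myosin light chain gene Mlc1 was 0.874-fold in Fast and 0.591-fold in Chronic heads (adjusted p = 0.0064). The troponin T gene up (upheld) was 0.907-fold in Fast and 0.637-fold in Chronic heads, 0.760 times naive on average (adjusted p = 0.00216), but its second probe set was not called (adjusted p = 0.991). Naive replicate 4 was the lowest naive array for Prm (938, against 1379 to 1691 on the other naive arrays) and for Actn (584, against 793 to 890).

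Of 56 cuticle and epidermis genes 16 fell and none rose, against 3.02% and 2.53% of all genes. A Chronic minus Fast difference was called for 15 of the 16, and all 19 differences between exposed groups in the list were lower in Chronic heads. The list held 5 genes added from earlier results of these data, among them CG5172 and CG13043, so these counts are partly fixed by that choice. Without the 5 genes 11 of 51 fell, 10 of them with a Chronic minus Fast difference. All 14 differences between exposed groups were then lower in Chronic heads. Cpr97Eb averaged 394 ± 47.5 in Fast and 252 ± 29.9 in Chronic heads, against 451 ± 64.3 in naive heads, 0.702 times naive (95% interval 0.622 to 0.792, adjusted p = 0.00059), Cpr100A was 0.811-fold in Fast and 0.564-fold in Chronic heads (adjusted p = 0.000194), and Cpr49Ae was lower without a called difference between them (Fast 0.813, Chronic 0.732, average 0.772, adjusted p = 0.00356). Summed muscle markers ran from 30221 to 34367 in Fast heads and from 23882 to 30280.5 in Chronic heads, against 28579.7 to 37960.4 in naive heads. Summed cuticle markers ran from 31245 to 41738 in Fast heads and from 21885 to 31057 in Chronic heads, against 32306 to 47930.5 in naive heads. In whole heads, fewer cells of a type and less RNA per cell cannot be told apart.

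**Figure D4:**
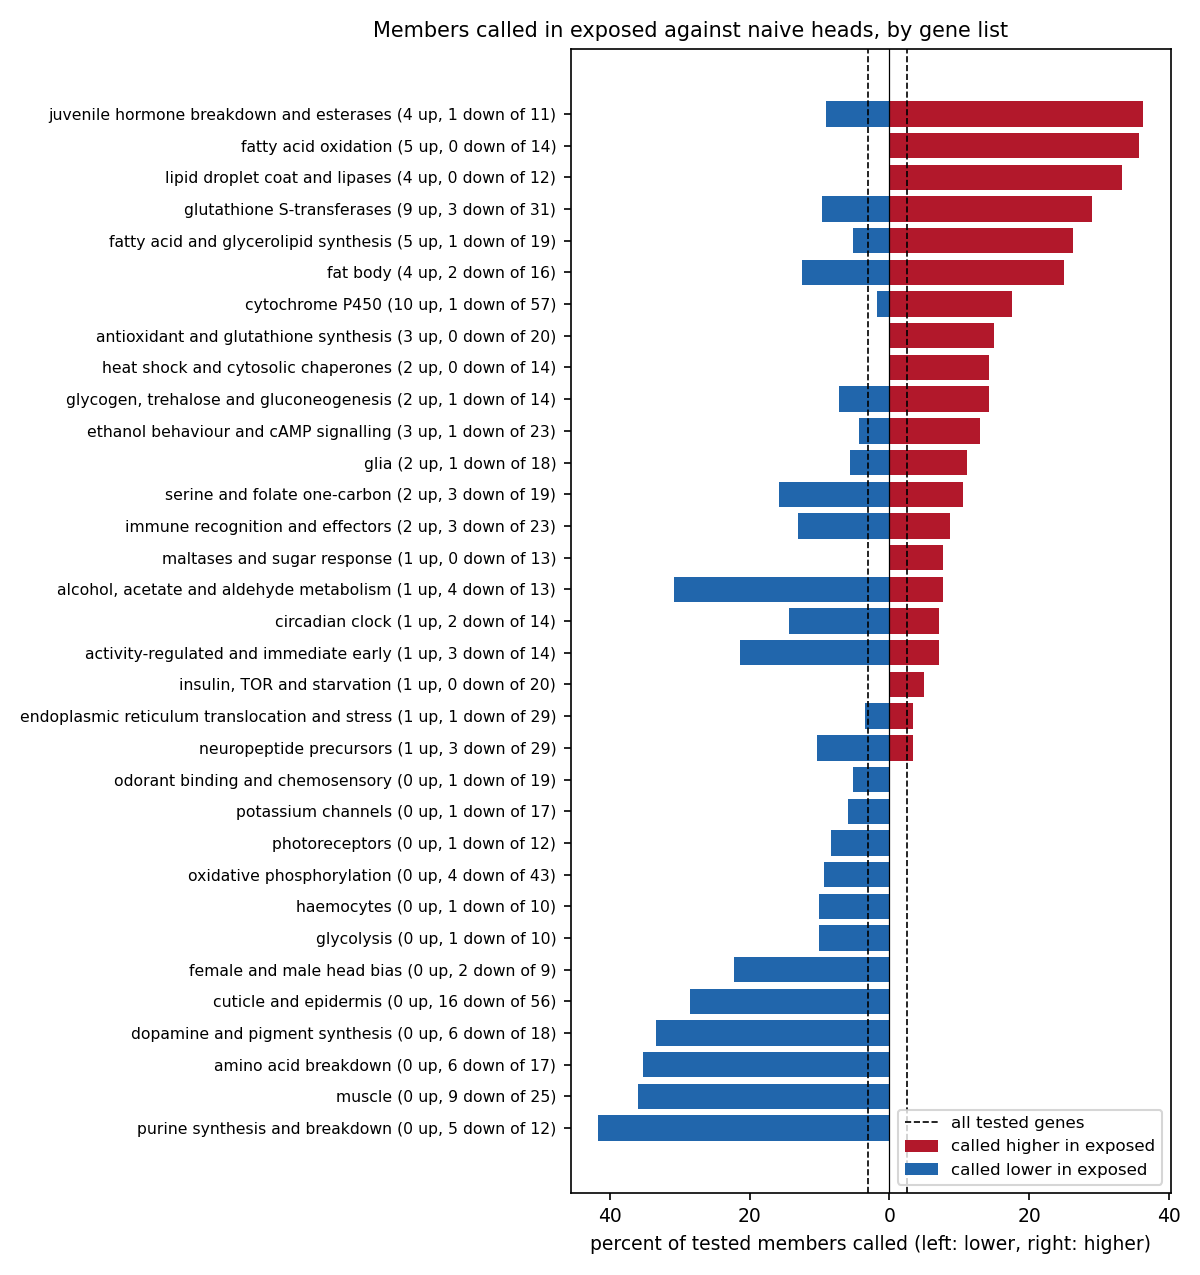
Bars give the percent of each list's tested genes called higher (right) and called lower (left) in exposed heads, with the counts in the labels and dashed lines at the values for all tested genes (2.53% and 3.02%). Lists with no call are not drawn. Lipid, oxidation and detoxification lists hold calls mostly on the higher side, and dopamine, amino acid breakdown, purine, muscle and cuticle lists mostly on the lower side. The lists were drawn up with earlier results of these data known, and the cuticle bar includes 5 genes added from those results.

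Marker and stress lists with few calls gave the following counts, to be read beside 2.53% higher and 3.02% lower over all genes. Of 29 genes of endoplasmic reticulum translocation and stress 1 rose (Der-1, Fast 1.18, Chronic 1.03, average 1.10, call lost under 10 of 29 alternatives) and 1 fell (Sec61alpha, Fast 0.744, Chronic 0.969, average 0.849, lost under 6). Of 18 glial markers 2 rose, pippin (Fast 1.36, Chronic 1.10, average 1.22, adjusted p = 0.000199, its second probe set not called at adjusted p = 0.541) and CG6126 (Fast 1.08, Chronic 1.19, average 1.13, adjusted p = 0.00672), and Gat fell. Of 12 photoreceptor markers 1 fell (Gbeta76C, Fast 0.906, Chronic 0.867, average 0.887, call lost under 14 of 29 alternatives), of 10 haemocyte markers 1 fell (NimC4), and of 19 odorant-binding and chemosensory genes 1 fell (Obp56e, Fast 0.838, Chronic 0.750, average 0.793, adjusted p = 0.0115). None of 16 gut, 10 testis, 13 ovary or 2 accessory gland genes passed the test, and of 9 sex-biased head genes CG10621 and fit fell.

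Beyond these lists, several genes differed strongly between exposed groups while their average still passed against naive. CG6908 was 2.71-fold in Fast and 0.940-fold in Chronic heads (Chronic minus Fast adjusted p = 2.37e-13). CG8389 was 0.945-fold in Fast and 1.69-fold in Chronic heads (adjusted p = 4.55e-10). Acer, a gene related to angiotensin-converting enzyme, was 1.04-fold in Fast and 1.43-fold in Chronic heads (adjusted p = 6.29e-07), and Hacd1, a dehydratase of fatty acid elongation, was 1.05-fold and 1.33-fold in the same order (adjusted p = 2.11e-05).

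Of genes that fell more in Fast heads, the glial glycoprotein gene ana (anachronism) ran from 77.0 to 91.9 (median 88.3) in Fast heads and from 103 to 126.9 (median 115) in Chronic heads, against 133 to 149.9 (median 136) in naive heads. Its exposed arrays were all below its naive arrays, and the exposed mean was 0.722 times naive (Fast 0.624, Chronic 0.834, 95% interval 0.674 to 0.772, adjusted p = 1.85e-06). CG10621 was 0.401-fold in Fast and 0.597-fold in Chronic heads (average 0.489 times naive, 95% interval 0.399 to 0.599, adjusted p = 8.13e-05), and CG15096, Srg1 and the myo-inositol oxygenase gene Miox were lower too. CG15096 was 0.633-fold in Fast and 0.806-fold in Chronic heads, 0.714 times naive on average (adjusted p = 9.57e-05). Srg1 was 0.597-fold in Fast and 0.811-fold in Chronic heads, 0.696 times naive on average (adjusted p = 9.57e-05). Miox was 0.722-fold in Fast and 0.896-fold in Chronic heads, 0.804 times naive on average (adjusted p = 0.00015). Of genes that fell more in Chronic heads, CG5172 ran from 92.0 to 156 (median 125) in Fast heads and from 55.2 to 64.8 (median 59.0) in Chronic heads, against 162 to 342 (median 237) in naive heads, with 3 Chronic arrays under the floor and no overlap between any pair of groups. Its average was 0.372 times naive (Fast 0.533, Chronic 0.259, 95% interval 0.316 to 0.437, adjusted p = 5.3e-08), or 0.487 with that pseudocount. NimC4, a phagocyte receptor gene, was 0.772-fold in Fast and 0.488-fold in Chronic heads (adjusted p = 0.000245), with 3 Chronic arrays under the floor. CG13056 was 0.813-fold in Fast and 0.626-fold in Chronic heads, 0.713 times naive on average (adjusted p = 5.46e-05). CG13043 was 0.736-fold in Fast and 0.452-fold in Chronic heads, 0.577 times naive on average (adjusted p = 0.000579). Both CG5172 and CG13043 were among the 5 genes added to the cuticle list from earlier results.

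**Figure D5:**
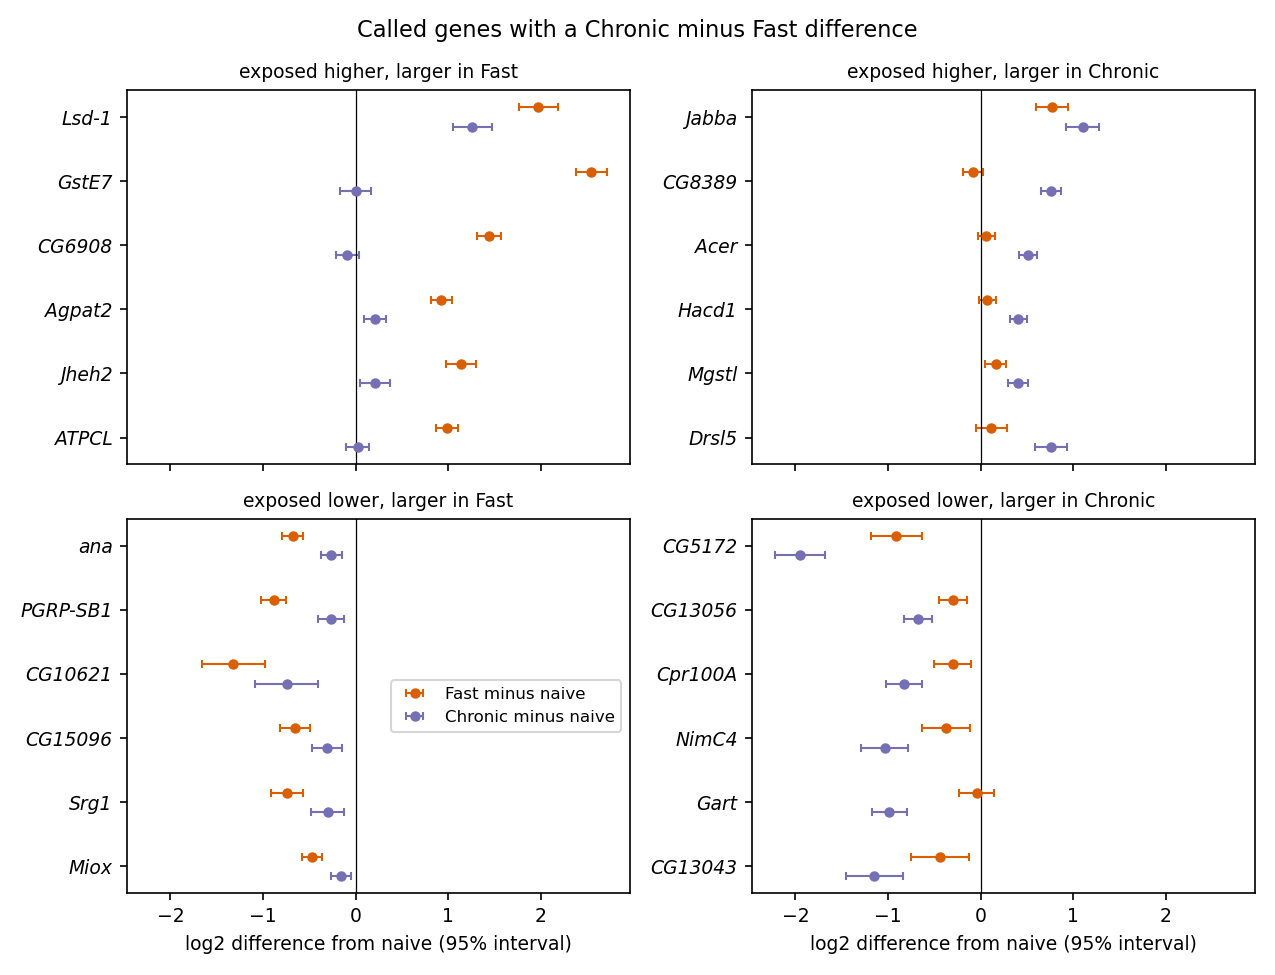
Log2 difference from naive heads with 95% intervals for 24 called genes with a Chronic minus Fast difference, 6 in each of 4 panels, for Fast heads and Chronic heads. GstE7, CG6908 and ATPCL lie far above 0 in Fast heads and close to 0 in Chronic heads, whereas Lsd-1, Jabba and CG5172 lie on the same side of 0 in both.

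The remaining called members of the lists fall outside the naming rule and were picked after their values were seen. Of synthesis genes these were Acsl (Fast 1.18, Chronic 1.25, adjusted p = 0.00588) and bgm (Fast 0.744, Chronic 0.829, adjusted p = 0.000997), and of oxidation genes Acox3 (Fast 1.12, Chronic 1.09, adjusted p = 0.0389). Of transferases 4 more rose, GstE1, GstE6, GstT3 and GstD9, and 2 more fell, GstT4 (Fast 0.845, Chronic 0.875, adjusted p = 0.00599) and GstE13 (Fast 0.910, Chronic 0.849, adjusted p = 0.0117). Of P450 genes 6 more rose, among them Cyp6d5 (Fast 1.95, Chronic 1.001, adjusted p = 0.000476) and Cyp12b2 (Fast 1.05, Chronic 1.27, adjusted p = 0.00454), and the member that fell was Cyp313a1 (Fast 0.772, Chronic 0.790, adjusted p = 0.00204). The other called esterase was clt (Fast 1.10, Chronic 1.14, adjusted p = 0.037). Further genes that fell were Sodh1 (Fast 0.875, Chronic 0.553, adjusted p = 0.00508), a sorbitol dehydrogenase gene, Oat (Fast 0.970, Chronic 0.705, adjusted p = 0.0275), of ornithine breakdown, Tdh (Fast 0.939, Chronic 0.809, adjusted p = 0.0276) and Adgf-D (Fast 1.03, Chronic 0.805, adjusted p = 0.0463). The remaining dopamine and pigment genes, tan and brown, had no called Chronic minus Fast difference, as t (Fast 0.839, Chronic 0.835, adjusted p = 0.0153) and bw (Fast 0.860, Chronic 0.916, adjusted p = 0.0271). A folate gene with its exposed means on opposite sides of naive was Nmdmc (Fast 2.18, Chronic 0.699, adjusted p = 0.0377), and the other fat body marker that rose was CG18135 (Fast 1.04, Chronic 1.58, adjusted p = 0.00275).

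Complete separation of exposed and naive arrays was rare. All 12 exposed arrays lay above all 6 naive arrays at 21 of 9311 probe sets (0.226%) and below them at 18 (0.193%), so that 39 (0.419%) did not overlap, and 38 of these were also called. Besides genes described above, this set held Phyhd1, a gene related to phytanoyl-CoA dioxygenase, which averaged 439 ± 32.9 in Fast and 403 ± 53.8 in Chronic heads, against 607 ± 68.8 in naive heads (0.693 times naive, 95% interval 0.624 to 0.770, adjusted p = 9.11e-05), and CG14186 of the activity-regulated list (Fast 0.886, Chronic 0.886, average 0.886, adjusted p = 0.00223). RpL32, a ribosomal protein gene often used for normalisation, averaged 4061 ± 152 in Fast and 4160.4 ± 145 in Chronic heads, against 4009 ± 232 in naive heads (adjusted p = 0.711).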

How the data were processed

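The deposited values are linear microarray intensities, 1 value per probe set and array, for 14010 probe sets including 44 controls, per the series value table. The sources used here do not give the software by which the authors summarised and normalized them. Probe sets were named from platform annotation of 2016 (12444 with 1 symbol, 327 with several, 1239 with none). Of these symbols 12394 matched a RefSeq gene table. Controls were removed, values were floored at the pooled 20th percentile (57.8) and taken to log2, and probe sets with a mean under 85.9 were dropped, which left 9311. A gene with several probe sets was represented by the brightest.

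Arrays were grouped by title. One limma 3.58.1 model (R 4.3.3) of 3 groups with 6 arrays each gave the mean of Fast and Chronic minus naive, Chronic minus Fast, and each exposed group minus naive, with Benjamini-Hochberg adjusted p over all probe sets and a threshold of 0.05. Intervals of 95% are unadjusted, and 18 arrays limit the precision. Control ratios used the unfloored intensities and exact two-sided permutation tests. Tables were handled with Python 3.11.15 and pandas 2.3.3.

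Named genes were the 12 highest and 12 lowest called genes without a Chronic minus Fast call, the 6 of smallest p in each of 4 classes with one, up to 4 called members of each of 43 gene lists, and a fixed panel. One panel gene, Act5C, was not analysed here. Members and lists were chosen with earlier results of these data known. Lists are described by counts and medians and were given no test. The labels name no source shared by same-numbered replicates, and the arrays were fitted without pairing. No pair of arrays was a duplicate (SD of log2 differences 0.11 to 0.26).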

Additional observations from a re-analysis of the deposited data

Results flagged for a closer look

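In 31 of the 366 groups of 6 arrays examined, a single array stood apart from its own group by Dixon's test at the 95% level, where chance gives about 1 in 20. Naive replicate 4 held 10 of these, all displaced toward the exposed heads. Its intensity was 124 for CG5966 (20.4 to 60.9 on the other naive arrays), 382 for CG5321 (322 to 335), 61.7 for GstE7 (40.3 to 53.7), 459 for Jabba (336 to 359), 669 for Drsl5 (449 to 507) and 187 for Lip4 (149 to 156), all higher than its group. It was 6754 for Nplp3 (7920.1 to 8343 on the other naive arrays), 419.8 for Gat (474 to 491), 938 for Prm (1379 to 1691) and 584 for Actn (793 to 889.9), all lower than its group. The cause was not tested.

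Other naive arrays stood apart at single genes. Naive replicate 1 was low for CG8654 (89.5, against 135 to 166) and for aay (1051, against 1165 to 1224). Naive replicate 2 was high for ana (149.9, against 133 to 138) and for Usp8 (129, against 92.7 to 100.1), and naive replicate 6 was low for scu (587, against 718 to 809).

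Among Fast arrays, replicate 3 was high for Hsp26 (566, against 188 to 212), Hsc70-4 (3563, against 2756 to 2970.4) and Gart (621, against 459.9 to 505) and low for Phyhd1 (373, against 440.2 to 459). Replicate 6 was high for DptB (406, against 241 to 285) and Miox (1640.1, against 1469.9 to 1511) and low for Obp56e (1327, against 1751 to 1887). Fast replicate 4 was low for se (247, against 334 to 391), and Fast replicate 2 was low for Acadvl (452, against 556 to 618).

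Among Chronic arrays, replicate 5 was low for Srg1 (169.5, against 239.8 to 271), Sec61alpha (988, against 1183 to 1307) and ImpL2 (310.0, against 349 to 367). Replicate 1 was high for alpha-Est8 (514, against 402 to 439) and CG6287 (1258, against 1162 to 1193), and replicate 3 was high for GstE7 (60.6, against 46.1 to 58.7) and mbf1 (439, against 369 to 389.6).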

How the results depend on the processing

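The 490 calls were recounted under 29 alternatives. Fitting Fast and Chronic arrays as 1 group left 209 calls, 102 higher and 107 lower, because differences between exposed groups then enter the residual spread. Other settings gave 380 calls without a filter on low values, 449 when the array least like its group was dropped from each and 607 with array weights. With the replicate number as a block, 601 were called. The labels give same-numbered arrays no shared source, and 8 of 18 such pairs correlated above 0.1 in their deviations from group means (-0.24 to 0.52). Of the 18 arrays 8 correlated best with their own number, which is a hint from the data and not from the design. Leaving out single arrays gave 378 to 565 calls, 172 to 250 higher, 195 to 315 lower and 184 to 260 with a Chronic minus Fast difference. Of the 116 called genes taken by the naming rule 59 kept their call under all 29 alternatives, 33 lost it only where exposed groups were joined, 24 lost it under another, and none changed direction. Of 67 Chronic minus Fast calls among the genes of that rule 11 were lost under an alternative and none turned round.

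Reversals were seen only in measures near 0 that were not called. With single arrays left out, the log2 difference of hang ranged from -0.00938 to 0.0729 and was negative without naive replicate 2. That of slo ranged from -0.0899 to 0.0296 and was positive without naive replicate 4 or 6. In the same refits the exposed minus naive difference ranged from -0.080 to 0.055 for the GAPDH ratio, from -0.048 to 0.14 for the hybridization spikes, from 0.17 to 0.21 for the actin ratio, from 0.76 to 0.97 for the 18S rRNA ratio and from 0.472 to 0.983 for the array median intensity. Low signal limits CG5966, GstE7, CG5172 and NimC4, each of which had arrays under the floor. Duration of treatment, anything that follows the array numbers in the titles, and exposure cannot be told apart here.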
